A study of Mus musculus with 36 samples.

Results

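In mouse embryonic fibroblasts (MEFs) with a normal, a mutated or no glucocorticoid receptor (GR), 10 genes of BMP and TGF-beta signaling were followed. These genes carry, tune or report that signaling. They were Bmp2, Bmp4, Tgfb2 and Tgfb3 (ligands), Grem1 and Bmper (extracellular BMP modulators), Tgfbr3 (a co-receptor), Smad6 and Smad7 (inhibitory SMADs) and Id1 (a direct BMP target). The genes were chosen by name, with earlier results of these data known. All 10 of 10 were found among the 55487 genes of the count table. All 10 were among the 15489 genes that passed the filter on low counts and were tested. MEFs are primary cultures made from dissociated mid-gestation embryos, and dexamethasone (Dex) is a synthetic glucocorticoid that binds and activates GR.

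Each of 12 groups held 3 libraries, and every library came from MEFs treated for 5 h with 1 µM Dex or with vehicle. Run 1 held GRwt/wt (normal receptor), GRD/D (an amino acid change in the dimer interface of the DNA-binding domain), GRD+L/D+L (that change together with a change in the dimer interface of the ligand-binding domain, on the same receptor) and GRko/ko (receptor knockout). Run 2 held GRwt/wt again and GRL/L (the ligand-binding domain change alone). All alleles were homozygous and present in every cell of the embryo. The strain was labelled FVB/NJ throughout, although the methods of the study give the knockout line a different background. The L and D+L alleles came from genome editing of zygotes followed by 5 backcrosses, and the homozygous GRL/L, GRD+L/D+L and GRko/ko animals do not survive birth. The study states that the cultures of a genotype came from different mice. The study split the work into these runs for technical reasons and states that handling and sequencer were the same. The question was how the Dex change and the vehicle level of these genes compared between receptor genotypes of the same run.

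BMPs and TGF-betas are secreted ligands that bind pairs of type I and type II serine/threonine kinase receptors. BMP receptors act mainly through one set of receptor SMADs and TGF-beta receptors mainly through another, each with the common SMAD. Gremlin 1, the product of Grem1, binds BMP2 and BMP4 and keeps them from their receptors, and BMPER modulates BMP availability in the matrix. TGFBR3 (betaglycan) presents TGF-beta ligands, TGF-beta 2 above all, to the signaling receptors. SMAD6 and SMAD7 act as intracellular brakes, and ID1 is a transcriptional inhibitor widely used as a readout of BMP signaling. In fibroblasts, TGF-beta is best known for driving matrix production and contraction.

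The RefSeq table of promoters on GRCm38.p6 held 5 of the 10 genes, namely Bmp4, Grem1, Bmper, Tgfb2 and Smad6. Bmp2, Tgfb3, Tgfbr3, Smad7 and Id1 had no entry. The 250 bases upstream of the start are shown for Tgfb2 (chr1:186705990-186706239), Grem1 (chr2:113758649-113758898) and Smad6 (chr9:64022060-64022309), all on the minus strand and written 5′ to 3′, because their RNA passed the Dex test below in more than 1 genotype and they are a ligand, an antagonist and an inhibitory SMAD. Capitals mark a motif match on either strand.
Tgfb2: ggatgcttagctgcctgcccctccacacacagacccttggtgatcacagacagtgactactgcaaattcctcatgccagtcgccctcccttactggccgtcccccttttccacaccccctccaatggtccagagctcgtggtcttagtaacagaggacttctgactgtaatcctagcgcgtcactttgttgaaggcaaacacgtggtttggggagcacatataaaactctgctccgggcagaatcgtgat
Grem1: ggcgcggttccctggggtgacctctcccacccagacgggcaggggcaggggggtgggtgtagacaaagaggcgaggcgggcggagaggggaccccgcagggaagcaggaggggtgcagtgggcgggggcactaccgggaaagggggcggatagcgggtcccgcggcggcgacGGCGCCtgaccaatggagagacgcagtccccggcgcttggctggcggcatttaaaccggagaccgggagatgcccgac
Smad6: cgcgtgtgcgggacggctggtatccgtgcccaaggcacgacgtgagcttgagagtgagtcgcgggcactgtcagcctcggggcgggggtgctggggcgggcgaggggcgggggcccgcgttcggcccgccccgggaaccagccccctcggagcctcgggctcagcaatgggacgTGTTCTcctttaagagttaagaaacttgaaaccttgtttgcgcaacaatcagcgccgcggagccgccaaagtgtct
The search covered both strands and the glucocorticoid response element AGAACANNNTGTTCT, its half-site AGAACA (which lies within it), the SMAD-binding palindrome GTCTAGAC and the BMP-responsive GGCGCC. Grem1 held 1 GGCGCC, 78 bases upstream of the start, a sequence present in 9.59% of 32851 promoter windows of the same length. Smad6 held 1 half-site, read as TGTTCT on the printed strand, 76 bases upstream, and 16.1% of windows held one. The full response element (0.00913% of windows) and GTCTAGAC (0.167%) had no match in any of the 5 windows, and Bmp4, Bmper and Tgfb2 had none of the searched motifs. These matches describe the letters of this window only. The windows were rich in G and C, from 53.6% for Tgfb2 to 72% for Grem1.

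Total counts ran from 15280166 to 19102035 in run 1 and from 21532686 to 28662608 in run 2. Values below are CPM, counts per 1000000 counts of the library after TMM scaling, and fold changes are edgeR quasi-likelihood estimates on the log2 scale with their standard errors. A gene was called changed at a Benjamini-Hochberg adjusted p of at most 0.05 over all 15489 genes. Nr3c1, which encodes GR, stood at 15.9 to 20.4 CPM in the GRko/ko libraries and at 47.8 to 105 CPM in all others. All 8 fibroblast markers were present in every library. The X- and Y-linked transcripts placed every library of a group in the same sex. GRwt/wt of run 1 and GRD/D were female, whereas GRD+L/D+L, GRko/ko, GRL/L and GRwt/wt of run 2 were male. Sex and genotype therefore cannot be told apart for GRD+L/D+L and GRko/ko against GRwt/wt of run 1. The summed level of 6 macrophage markers was 2230 to 2650 CPM in GRko/ko, against 162 to 286 in GRwt/wt of run 1, 599 to 701 in GRD/D, 28.0 to 37.3 in GRD+L/D+L, 376 to 455 in GRwt/wt of run 2 and 605 to 892 in GRL/L, and none of the 6 was at 0 in any library. The 5 cartilage markers summed to 179 to 535 CPM in GRko/ko and to at most 30.5 CPM in the other run 1 groups. Over all libraries Col2a1 reached 471 CPM, while Sox9, Col9a1, Acan and Matn1 reached at most 46.7, 29.3, 11.9 and 1.14 CPM. This sum therefore does not measure cartilage cell content. These values are from bulk RNA, in which fewer cells of a type and less RNA per cell cannot be told apart.

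Per kilobase of exon, the levels of the 10 genes spanned a wide range in vehicle-treated GRwt/wt cells. In run 1, Tgfb3 (85.2 CPM per kb), Id1 (82.0) and Grem1 (79.7) were highest and their libraries overlapped, followed by Smad7 (34.9) and Bmper (11.4), which each stood apart from their neighbours. Smad6 (8.69) and Tgfb2 (7.95) overlapped, and Tgfbr3 (4.29), Bmp4 (0.928) and Bmp2 (0.138) came last in that order without overlap. In run 2 the order was Grem1 (111), Id1 (93.6), Tgfb3 (70.6), Tgfbr3 (15.2), Smad6 (11), Bmp4 (10.1), Bmper (7.83), Smad7 (7.71), Tgfb2 (5.47) and Bmp2 (0.308). There only Smad6 and Bmp4, and Bmper and Smad7, overlapped with the next gene. The levels of the same genotype differed widely between runs. In vehicle-treated GRwt/wt cells Smad7 was 151 to 163 CPM in run 1 and 33.2 to 38.1 CPM in run 2, Bmp4 was 1.85 to 2.40 and 21.1 to 23.7 CPM, and Tgfbr3 was 25.9 to 32.0 and 90.9 to 111 CPM. No test was made of these levels between runs, where run and sex go together, and all tests below stay within a run unless stated.

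**Figure D1:**
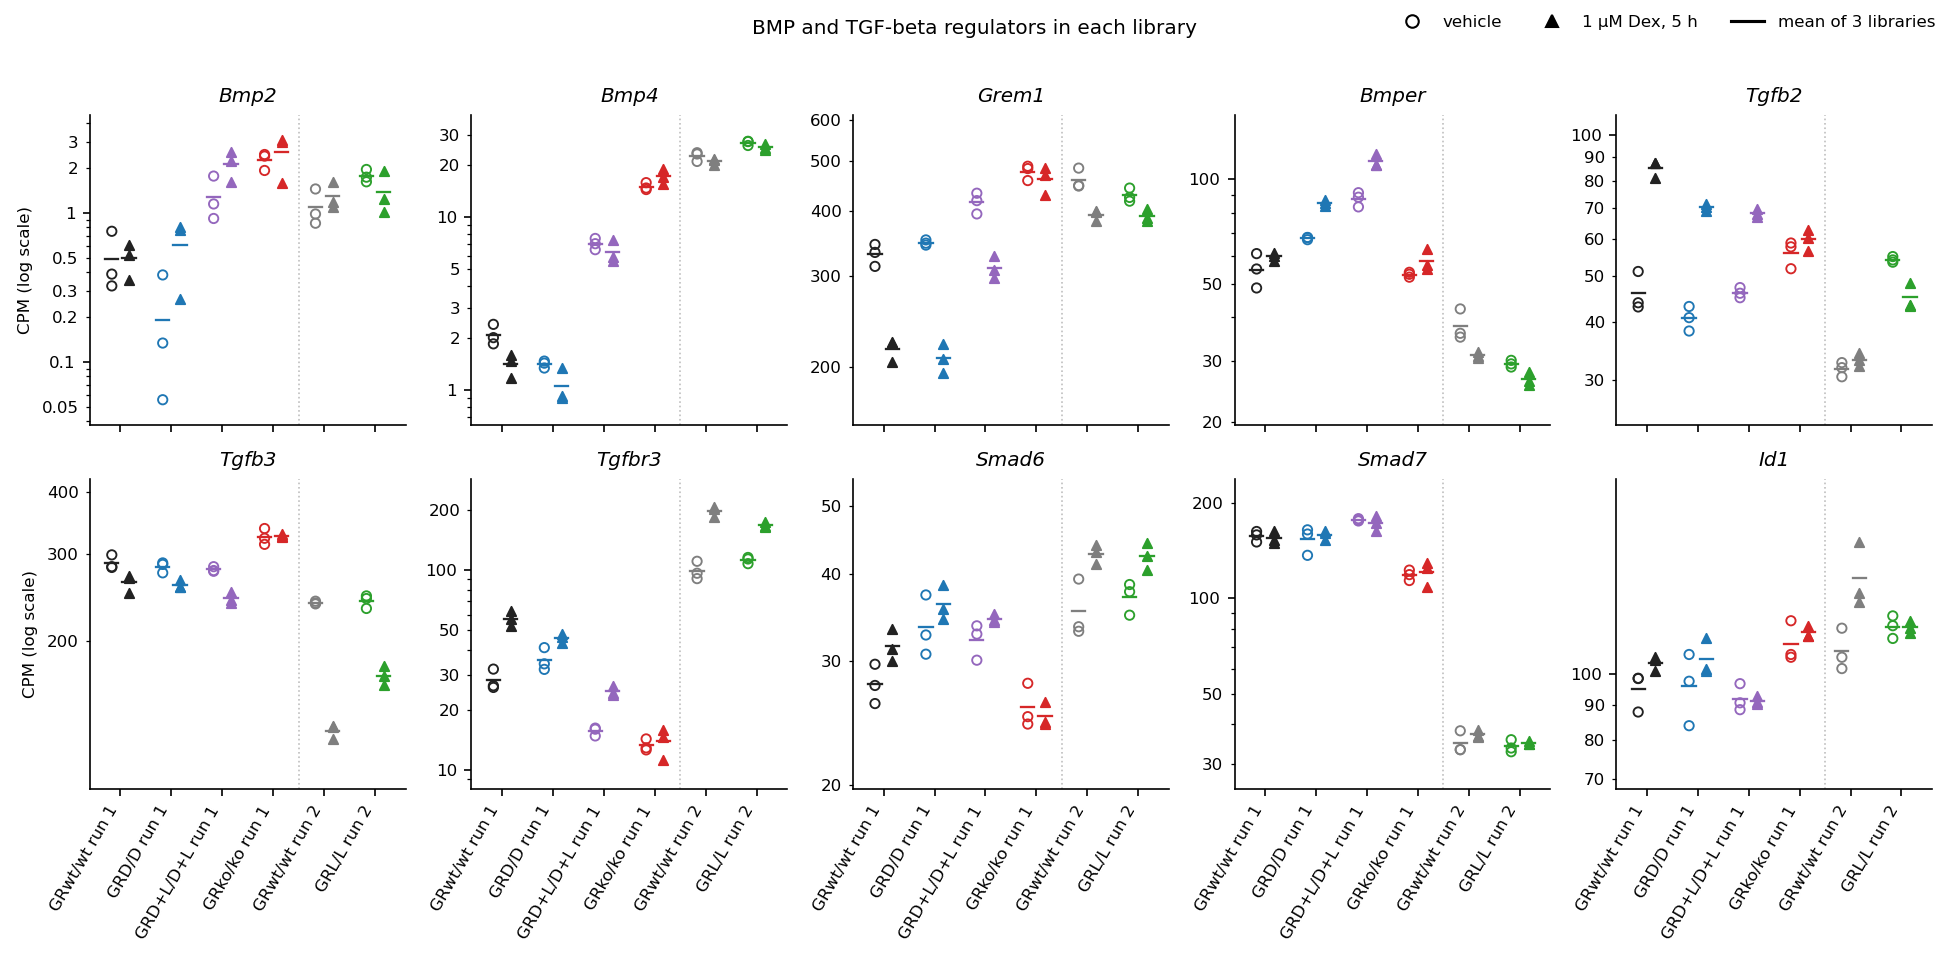
CPM (log scale) of each of the 10 genes in all 36 libraries, with vehicle as open circles, Dex as filled triangles and a bar at the mean of each group of 3. The dotted line separates run 1 from run 2. Tgfbr3 rose under Dex in every genotype except GRko/ko, and Bmp4 was lowest in GRwt/wt and GRD/D of run 1.

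In GRwt/wt cells of run 1, 4 of the 10 genes were called under Dex, against 13.9% of all genes tested. Tgfb2 and Tgfbr3 rose and Grem1 and Tgfb3 fell. In GRwt/wt cells of run 2, 6 of 10 were called, against 31.6% of all genes. There Tgfbr3, Smad6 and Id1 rose and Tgfb3, Grem1 and Bmper fell. GRD/D had 5 of 10 (background 11.9%) and GRD+L/D+L had 5 of 10 (background 5%), and in each of them Tgfb2, Tgfbr3 and Bmper were higher and Grem1 and Tgfb3 lower. GRL/L had 4 of 10 (background 19.1%), with Tgfbr3 and Smad6 higher and Tgfb2 and Tgfb3 lower. In GRko/ko none of the 10 was called by edgeR, nor was any of the 15489 genes (background 0%), although 859 genes, 2 of them among the 10 (Bmp4 and Bmper), had an unadjusted p under 0.05. DESeq2 called 1 gene there, and none of the 10. The median Dex difference of the 10 genes lay between -0.11 in GRL/L and 0.12 in GRD/D on the log2 scale, and the median over all genes lay between -0.0114 and -0.0003. Macrophage marker sums overlapped between Dex and vehicle in GRwt/wt of run 1, GRD/D, GRD+L/D+L, GRko/ko and GRL/L. They were lower under Dex in GRwt/wt of run 2 (376 to 418 against 435 to 455 CPM), a difference whose part in the Dex results was not tested. Sums of other marker lists also separated between treatments without overlap. Cartilage markers were lower under Dex in GRD+L/D+L (17 to 21.2 against 25.4 to 27 CPM), and skeletal muscle markers in GRD/D (458 to 563 against 605 to 621) and GRD+L/D+L (559 to 626 against 644 to 664). Endothelial markers were higher under Dex in GRwt/wt of run 1 (15 to 16.6 against 7.46 to 10.4) and GRL/L (6.47 to 7.41 against 4.88 to 5.44) and lower in GRD/D (3.79 to 5.74 against 6.21 to 7.04). Epithelial markers, at most 5.32 CPM in these groups, were lower under Dex in GRwt/wt of both runs, GRD/D and GRD+L/D+L, and fibroblast markers were lower in GRL/L (25400 to 27400 against 28200 to 32100). The skeletal muscle sum rested mainly on Acta1 (3.82 to 756 CPM over all libraries). Myod1, Myog and Myh3 reached at most 0.304, 0.958 and 3.34 CPM. The endothelial sum rested mainly on Kdr (3.01 to 16 CPM), while Pecam1, Tie1 and Cdh5 reached at most 0.638, 0.253 and 1.47 CPM. These sums therefore do not measure muscle or endothelial cell content. The part of all these marker differences in the Dex results was not tested.

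**Figure D2:**
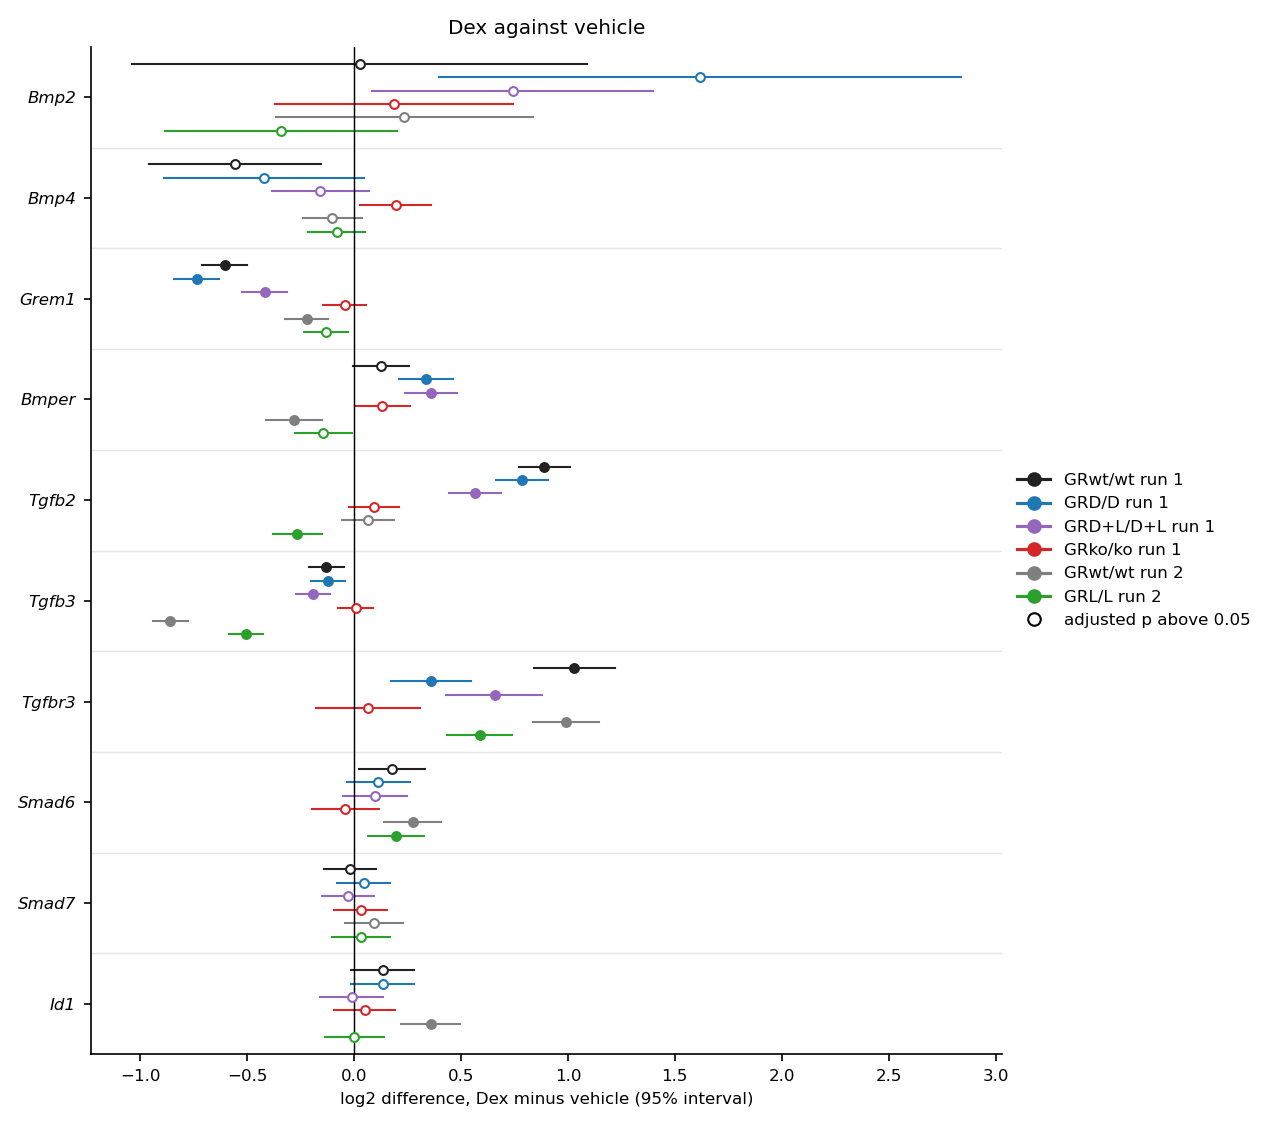
Log2 difference between Dex and vehicle with its 95% interval for each of the 10 genes in the 6 combinations of genotype and run, filled where the adjusted p was at most 0.05. Tgfb2 lay above 0 in the 3 run 1 genotypes that have a receptor and near or below 0 in run 2, while Tgfb3 fell furthest in run 2.

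Tgfb2 (ENSMUSG00000039239, chr1:186622792-186705989 on GRCm38, minus strand) encodes TGF-beta 2. In GRwt/wt of run 1 it stood at 43.9, 51.2 and 43.0 CPM in vehicle and at 87.5, 81.2 and 87.1 CPM in Dex, a rise of 0.89 ± 0.059 on the log2 scale (SE, n = 3 against 3; edgeR adjusted p = 1.45e-14). Every Dex library was above every vehicle library. GRD/D rose from 40.8, 38.2 and 43.1 to 69.1, 70.4 and 71.3 CPM (0.79 ± 0.060, edgeR adjusted p = 1.84e-12) and GRD+L/D+L from 47.3, 46.0 and 45.0 to 68.1, 67.0 and 69.6 CPM (0.57 ± 0.060, edgeR adjusted p = 1.11e-08), again with no overlap between treatments. The rise in GRD/D differed from that in GRwt/wt by -0.10 (95% interval -0.27 to 0.07), which was not called. In GRD+L/D+L it was smaller by -0.33 ± 0.084 (edgeR adjusted p = 0.0186), a call that was lost without GRwt/wt vehicle replicate 1 or 3, GRwt/wt Dex replicate 1 or GRD+L/D+L vehicle replicate 1 (adjusted p 0.0596 to 0.0889). GRko/ko libraries stood at 51.9, 58.9 and 57.8 CPM in vehicle and 56.5, 60.5 and 62.9 CPM in Dex and overlapped. In run 2 the pattern was different. GRwt/wt was at 31.9, 32.7 and 30.5 CPM in vehicle and at 33.1, 34.2 and 32.1 CPM in Dex (0.07, 95% interval -0.06 to 0.19), and GRL/L fell from 55.1, 54.2 and 53.6 to 43.5, 43.3 and 48.4 CPM (-0.27 ± 0.056, edgeR adjusted p = 0.000426). The Dex response of GRwt/wt itself differed by -0.82 ± 0.084 between run 2 and run 1 (edgeR adjusted p = 3.82e-09), where the runs also differed in sex.

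In vehicle, GRL/L held more Tgfb2 than GRwt/wt of its run, by 0.78 ± 0.057 (edgeR adjusted p = 5.93e-12), with no overlap. GRko/ko held 0.29 ± 0.060 more than GRwt/wt of run 1 (edgeR adjusted p = 0.000136), and GRD+L/D+L did not differ by a detectable amount (0.004, 95% interval -0.12 to 0.13). The GRD/D difference of -0.18 was not called, although it was without GRwt/wt replicate 3 or without GRD/D replicate 3 (adjusted p 0.0393 and 0.0265), by DESeq2 (0.0368), with the size factors of DESeq2 (0.0409) and with at least 10 counts in every library (0.0488). An annotated antisense gene, Gm29491, overlaps the exons of Tgfb2, and the strand setting of the counting is not given in the sources used here.

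Tgfb3 (ENSMUSG00000021253, chr12:86056745-86079041, minus strand) encodes TGF-beta 3 and was the most abundant of the 4 ligands per kilobase in every vehicle group. Its Dex change was large in run 2 and small in run 1. In GRwt/wt of run 2 it fell from 241, 238 and 239 CPM to 127, 134 and 135 CPM (-0.86 ± 0.040, edgeR adjusted p = 1.98e-19), and in GRL/L from 247, 244 and 233 to 178, 163 and 170 CPM (-0.50 ± 0.040, edgeR adjusted p = 1.17e-12). The libraries did not overlap in either genotype. The fall in GRL/L was smaller than in GRwt/wt, by 0.36 ± 0.056 (edgeR adjusted p = 8.5e-05). In GRwt/wt of run 1 the values were 282, 283 and 299 CPM in vehicle and 269, 250 and 271 CPM in Dex, a fall of 0.13 ± 0.040 (edgeR adjusted p = 0.023). GRD/D (-0.12, edgeR adjusted p = 0.0402) and GRD+L/D+L (-0.19, edgeR adjusted p = 0.00135) also fell, and GRko/ko gave 0.01 (95% interval -0.07 to 0.09). The Dex response of GRwt/wt differed by -0.73 ± 0.056 between run 2 and run 1 (edgeR adjusted p = 6.41e-12).

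The small falls of Tgfb3 in run 1 were sensitive to single libraries. The call in GRwt/wt was lost without vehicle replicate 3 or Dex replicate 2 (adjusted p 0.146 and 0.18), and that in GRD/D without vehicle replicate 1 or 3 or Dex replicate 2 or 3 (0.0972 to 0.16). Both were also lost with no filter on low counts (adjusted p 0.229 and 0.223). Of the 4 vehicle comparisons of Tgfb3, that of GRko/ko passed, by 0.17 ± 0.040 (edgeR adjusted p = 0.00042), at 314 to 338 CPM against 282 to 299. Gm37804 and Gm48008 lie antisense over its exons.

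Bmp4 (ENSMUSG00000021835, chr14:46383520-46390669, minus strand) and Bmp2 (ENSMUSG00000027358, chr2:133552159-133562885, plus strand) encode BMP ligands with roles in mesenchyme, bone and cartilage. Neither was called under Dex in any of the 6 combinations, but both differed in the vehicle level. Bmp4 in vehicle was 2.01, 1.85 and 2.40 CPM in GRwt/wt of run 1, 1.47, 1.43 and 1.34 CPM in GRD/D, 6.5, 7.04 and 7.55 CPM in GRD+L/D+L and 14.8, 14.5 and 15.9 CPM in GRko/ko. The last 2 genotypes were above GRwt/wt without overlap, by 1.75 ± 0.14 in GRD+L/D+L (edgeR adjusted p = 3.38e-12) and by 2.85 ± 0.12 in GRko/ko (edgeR adjusted p = 6.79e-21). GRD/D was at -0.57 ± 0.20, which was not called (edgeR adjusted p = 0.0895). In run 2, GRL/L was at 27.6, 27.5 and 26.1 CPM against 23.3, 23.7 and 21.1 CPM in GRwt/wt, a difference of 0.25 ± 0.067 (edgeR adjusted p = 0.00945) that was not called without GRwt/wt replicate 6 (0.20, adjusted p = 0.0833).

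Bmp2 was scarce, at 0.0558 to 3.11 CPM over all libraries, and its intervals were the widest of the 10 genes. In vehicle it was 0.324, 0.754 and 0.389 CPM in GRwt/wt of run 1, 0.919, 1.15 and 1.77 CPM in GRD+L/D+L and 2.41, 1.93 and 2.47 CPM in GRko/ko. All libraries of both mutants lay above all GRwt/wt libraries. GRko/ko was higher by 2.21 ± 0.39 (edgeR adjusted p = 1.03e-05). GRD+L/D+L was higher by 1.38 ± 0.44 (edgeR adjusted p = 0.0141), a call lost without GRwt/wt replicate 1 or 3 or GRD+L/D+L replicate 3 (adjusted p 0.0608 to 0.106). Under Dex the GRD/D estimate for Bmp2 was 1.62 (95% interval 0.40 to 2.84, edgeR adjusted p = 0.0759), from 0.134, 0.384 and 0.0558 CPM to 0.264, 0.770 and 0.804 CPM. It was called without GRD/D vehicle replicate 2 (2.67) or Dex replicate 1 (1.97). With all libraries it was called by DESeq2 (1.66, adjusted p = 0.0346) and by edgeR with no filter on low counts (1.61, adjusted p = 0.034). For Bmp4 under Dex, GRwt/wt of run 1 gave -0.56 (95% interval -0.96 to -0.16, edgeR adjusted p = 0.0817), with no overlap between 1.60, 1.17 and 1.47 CPM in Dex and the vehicle libraries. The Bmp4 response of GRko/ko differed from that by 0.75 ± 0.21 (edgeR adjusted p = 0.0231), a call lost without GRwt/wt vehicle replicate 3, GRwt/wt Dex replicate 2 or GRko/ko Dex replicate 3 (adjusted p 0.0601 to 0.129). It was also lost with no filter on low counts (edgeR adjusted p = 0.0644). GRko/ko itself gave 0.195 under Dex (95% interval 0.029 to 0.361, edgeR adjusted p = 0.796), with overlapping libraries at 14.5 to 15.9 CPM in vehicle and 15.7 to 19 CPM in Dex. Gm15217 lies antisense over exons of Bmp4.

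Grem1 (ENSMUSG00000074934, chr2:113746164-113758646, minus strand), the BMP antagonist, fell under Dex in all 3 run 1 genotypes with a receptor. GRwt/wt went from 345, 313 and 333 CPM to 205, 223 and 224 CPM (-0.60 ± 0.052, edgeR adjusted p = 1.32e-11). GRD/D went from 352, 344 and 347 to 195, 208 and 222 CPM (-0.74 ± 0.052, edgeR adjusted p = 3.32e-13). GRD+L/D+L went from 433, 419 and 395 to 308, 328 and 297 CPM (-0.42 ± 0.051, edgeR adjusted p = 2.17e-07). Dex and vehicle libraries did not overlap in these genotypes. GRko/ko overlapped at 458 to 488 CPM in vehicle and 430 to 485 CPM in Dex (-0.04, 95% interval -0.15 to 0.06), and its response differed from that of GRwt/wt by 0.56 ± 0.072 (edgeR adjusted p = 3.84e-07). In run 2, GRwt/wt fell from 447, 448 and 484 to 383, 398 and 400 CPM (-0.22 ± 0.050, edgeR adjusted p = 0.000644), less than in run 1 by 0.38 ± 0.072 (edgeR adjusted p = 0.000333). GRL/L was at 425, 418 and 443 CPM in vehicle and at 404, 388 and 382 CPM in Dex (-0.13 ± 0.050, edgeR adjusted p = 0.0617), which did not pass, and its difference from GRwt/wt was 0.09 (95% interval -0.06 to 0.23). The fall in GRL/L was called when its 2 groups were fitted alone (edgeR adjusted p = 0.0145).

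In vehicle, Grem1 was higher than in GRwt/wt of run 1 in GRD+L/D+L, by 0.33 ± 0.051 (edgeR adjusted p = 3.33e-06), and in GRko/ko, by 0.53 ± 0.051 (edgeR adjusted p = 4.95e-11), without overlap. GRD/D and GRL/L gave 0.07 and -0.10 and were not called. The genotypes with more Bmp4 in run 1 were also those with more Grem1, at 6.5 to 7.55 and 14.5 to 15.9 CPM for Bmp4 and 395 to 433 and 458 to 488 CPM for Grem1. Both were male, unlike GRwt/wt and GRD/D of that run. In run 2, where both genotypes were male, GRL/L had more Bmp4 than GRwt/wt (0.25, edgeR adjusted p = 0.00945) but not more Grem1. Grem1 there was at 418 to 443 CPM against 447 to 484 CPM in GRwt/wt.

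Bmper (ENSMUSG00000031963, chr9:23223076-23485200, plus strand), the BMP-binding endothelial regulator, was called higher under Dex in 2 genotypes of run 1 and lower in 1 of run 2. It rose under Dex in GRD/D, from 67.8, 66.9 and 67.9 to 86.8, 85.5 and 83.6 CPM (0.34 ± 0.062, edgeR adjusted p = 0.000152), and in GRD+L/D+L, from 91.3, 88.6 and 83.1 to 110, 110 and 118 CPM (0.36 ± 0.060, edgeR adjusted p = 5.84e-05). GRwt/wt of run 1 overlapped, at 48.6, 61.0 and 55.1 CPM in vehicle and 60.1, 58.2 and 61.3 CPM in Dex (0.13, 95% interval -0.01 to 0.26), and was called only without vehicle replicate 2 (0.20, edgeR adjusted p = 0.0441). Neither mutant's Bmper response was called different from that of GRwt/wt of run 1 (0.21, edgeR adjusted p = 0.291, and 0.24, edgeR adjusted p = 0.194), although the GRD+L/D+L difference was called without GRwt/wt vehicle replicate 1 (0.32, adjusted p = 0.033). A model with 1 Dex effect for GRwt/wt over both runs, described below, called both (0.415, edgeR adjusted p = 0.00391, and 0.439, edgeR adjusted p = 0.00198). GRko/ko stood at 52.2 to 53.9 CPM in vehicle and 55.1 to 62.9 CPM in Dex, without overlap. Its estimate of 0.13 (95% interval 0.002 to 0.262) was close to that of GRwt/wt of run 1 and was not called (edgeR adjusted p = 0.891). In run 2, GRwt/wt fell from 36, 35.1 and 42.3 to 31.0, 30.6 and 31.8 CPM (-0.28 ± 0.064, edgeR adjusted p = 0.000719) and GRL/L gave -0.15 (edgeR adjusted p = 0.133). The response of GRwt/wt differed between the runs by -0.41 ± 0.091 (edgeR adjusted p = 0.00276).

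The vehicle level of Bmper was higher than in GRwt/wt in GRD/D, by 0.30 ± 0.064 (edgeR adjusted p = 0.00123), and in GRD+L/D+L, by 0.68 ± 0.063 (edgeR adjusted p = 9.5e-11). It was lower in GRL/L than in GRwt/wt of run 2, by -0.36 ± 0.064 (edgeR adjusted p = 9.4e-05), at 30.1, 28.8 and 29.4 CPM. In GRko/ko it was 53.2, 53.9 and 52.2 CPM, within the spread of GRwt/wt (-0.05, 95% interval -0.18 to 0.08).

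Tgfbr3 (ENSMUSG00000029287, chr5:107106570-107289629, minus strand), the betaglycan gene, was the member that rose under Dex in every genotype with a receptor. In GRwt/wt of run 1 it went from 26.4, 32.0 and 25.9 to 52.4, 56.9 and 62.5 CPM (1.03 ± 0.093, edgeR adjusted p = 5.2e-11) and in GRwt/wt of run 2 from 96.7, 90.9 and 111 to 185, 207 and 202 CPM (0.99 ± 0.076, edgeR adjusted p = 2.5e-13). The response of the 2 GRwt/wt sets differed by -0.04 (95% interval -0.28 to 0.20), although their levels lay far apart. GRD/D rose from 34.0, 31.9 and 41.0 to 43.2, 46.2 and 48.1 CPM (0.36 ± 0.092, edgeR adjusted p = 0.00633), a call that was lost without GRD/D vehicle replicate 2 (0.28, adjusted p = 0.0668). This response was smaller than in GRwt/wt by -0.67 ± 0.13 (edgeR adjusted p = 0.00091). GRD+L/D+L rose from 16.0, 14.8 and 16.2 to 24.3, 26.3 and 23.6 CPM (0.66 ± 0.11, edgeR adjusted p = 6.92e-05), and its difference of -0.37 from GRwt/wt was not called (95% interval -0.67 to -0.08, edgeR adjusted p = 0.227). It was called at -0.37 when only the groups compared were fitted (edgeR adjusted p = 0.0442) and at -0.38 with no filter on low counts (edgeR adjusted p = 0.0416). GRL/L rose from 114, 116 and 108 to 167, 165 and 175 CPM (0.59 ± 0.075, edgeR adjusted p = 1.19e-07), smaller than in GRwt/wt of run 2 by -0.40 ± 0.11 (edgeR adjusted p = 0.0353), a call lost in 8 of the 12 fits without 1 library (adjusted p 0.0594 to 0.141), namely without GRwt/wt vehicle replicate 4 or 5, GRwt/wt Dex replicate 5 or 6, or GRL/L replicate 1 or 2 of either treatment. Dex and vehicle libraries were apart in all of these genotypes and overlapped in the knockout. GRko/ko stood at 12.9, 12.6 and 14.3 CPM in vehicle and 11.2, 14.6 and 15.9 CPM in Dex.

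In vehicle, Tgfbr3 was lower than in GRwt/wt of run 1 in GRD+L/D+L, by -0.84 ± 0.11 (edgeR adjusted p = 1.38e-07), and in GRko/ko, by -1.08 ± 0.11 (edgeR adjusted p = 1.85e-10), without overlap. GRD/D was above GRwt/wt by 0.35 ± 0.097 (edgeR adjusted p = 0.0161) although the libraries overlapped, and the call was lost without GRwt/wt replicate 1 or 3 or GRD/D replicate 3 (adjusted p 0.0957 to 0.125). GRL/L differed from GRwt/wt of run 2 by 0.18 (edgeR adjusted p = 0.14), which was called without GRwt/wt replicate 6 (0.26, adjusted p = 0.0366). Gm43422, on the same strand, overlaps the exons of Tgfbr3.

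Smad6 (ENSMUSG00000036867, chr9:63953076-64022059, minus strand), which mainly restrains BMP signaling, rose under Dex in both genotypes of run 2. GRwt/wt went from 33.1, 33.6 and 39.3 to 43.9, 41.3 and 42.9 CPM (0.27 ± 0.065, edgeR adjusted p = 0.00103) and GRL/L from 38.6, 37.7 and 34.9 to 42.4, 40.5 and 44.2 CPM (0.19 ± 0.064, edgeR adjusted p = 0.028). The GRL/L call was lost without GRL/L vehicle replicate 2 or 3 or Dex replicate 1 or 3 (adjusted p 0.0532 to 0.161). In run 1 the estimates were 0.18 in GRwt/wt (edgeR adjusted p = 0.125), 0.11 in GRD/D, 0.10 in GRD+L/D+L and -0.04 in GRko/ko, and none was called. In vehicle, GRD/D was higher than GRwt/wt by 0.27 ± 0.075 (edgeR adjusted p = 0.0172), a call lost without GRwt/wt replicate 1 or 2 or GRD/D replicate 1 (adjusted p 0.0633 to 0.159). GRD+L/D+L was higher by 0.21 ± 0.076 (edgeR adjusted p = 0.0338), a call lost without GRwt/wt replicate 1 or 2 or GRD+L/D+L replicate 2 or 3 (adjusted p 0.0845 to 0.175).

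Smad7 (ENSMUSG00000025880, chr18:75367529-75395935, plus strand), which restrains TGF-beta signaling as well as BMP signaling, was not called under Dex in any of the 6 combinations. Its estimates ran from -0.03 in GRD+L/D+L to 0.095 in GRwt/wt of run 2, and the 95% interval of the latter reached from -0.04 to 0.23. In vehicle, GRko/ko was at 119, 123 and 114 CPM against 151, 159 and 163 CPM in GRwt/wt, lower by -0.41 ± 0.061 (edgeR adjusted p = 6.22e-07). GRD+L/D+L was higher by 0.17 ± 0.060 (edgeR adjusted p = 0.0291), and this call was lost without GRwt/wt replicate 1 or 2 or any 1 of the GRD+L/D+L replicates (adjusted p 0.0637 to 0.137).

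Id1 (ENSMUSG00000042745, chr2:152736251-152737410, plus strand), the BMP readout, rose under Dex in GRwt/wt of run 2, from 102, 106 and 117 to 157, 128 and 132 CPM (0.36 ± 0.068, edgeR adjusted p = 6.94e-05). GRL/L stood at 118, 122 and 113 CPM in vehicle and 117, 115 and 120 CPM in Dex, with no difference in the estimate (95% interval -0.14 to 0.14). The 2 responses differed by -0.36 ± 0.096 (edgeR adjusted p = 0.042), a call lost in 8 of the 12 fits without 1 library (adjusted p 0.0577 to 0.165), namely without GRwt/wt vehicle replicate 4 or 5, GRwt/wt Dex replicate 4, GRL/L vehicle replicate 1 or 2 or any 1 of the GRL/L Dex replicates. It was also lost when the run 2 libraries were fitted alone (adjusted p = 0.09). Run 1 gave 0.13 in GRwt/wt and in GRD/D, -0.01 in GRD+L/D+L and 0.05 in GRko/ko, with none called. In vehicle, GRko/ko was higher than GRwt/wt by 0.23 ± 0.072 (edgeR adjusted p = 0.00941), at 120, 106 and 107 against 98.6, 98.7 and 88.0 CPM, a call lost without GRwt/wt replicate 3 or GRko/ko replicate 1 (adjusted p 0.0861 and 0.101).

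Counted over the 10 genes, the vehicle comparisons called 3 in GRD/D (background 9.55%), 7 in GRD+L/D+L (29.9%), 8 in GRko/ko (45.7%) and 3 in GRL/L (11.3%). The 3 run 1 comparisons share the GRwt/wt libraries. Fitted on the 2 groups alone, where 9 of the 10 were tested and 632 of 13536 genes were called, GRD/D against GRwt/wt left no member called, with estimates of 0.28 for Bmper, 0.33 for Tgfbr3 and 0.25 for Smad6. GRD+L/D+L and GRko/ko both held more Bmp2, Bmp4 and Grem1 and less Tgfbr3 than GRwt/wt, whereas Bmper and Smad6 passed in GRD+L/D+L and Tgfb2, Tgfb3 and Id1 in GRko/ko, and Smad7 was higher in the former and lower in the latter. Macrophage markers moved in opposite directions in these genotypes, at 29.3 to 37.3 CPM in GRD+L/D+L and 2380 to 2650 CPM in GRko/ko against 164 to 286 CPM in GRwt/wt. Cartilage markers were at 25.4 to 27.0 and 179 to 535 CPM against 18.8 to 21.0. The part of these marker differences in the vehicle differences was not tested, and sex cannot be told apart from these 2 genotypes. For GRko/ko, the different background that the methods of the study give the knockout line cannot be told apart from genotype either.

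**Figure D3:**
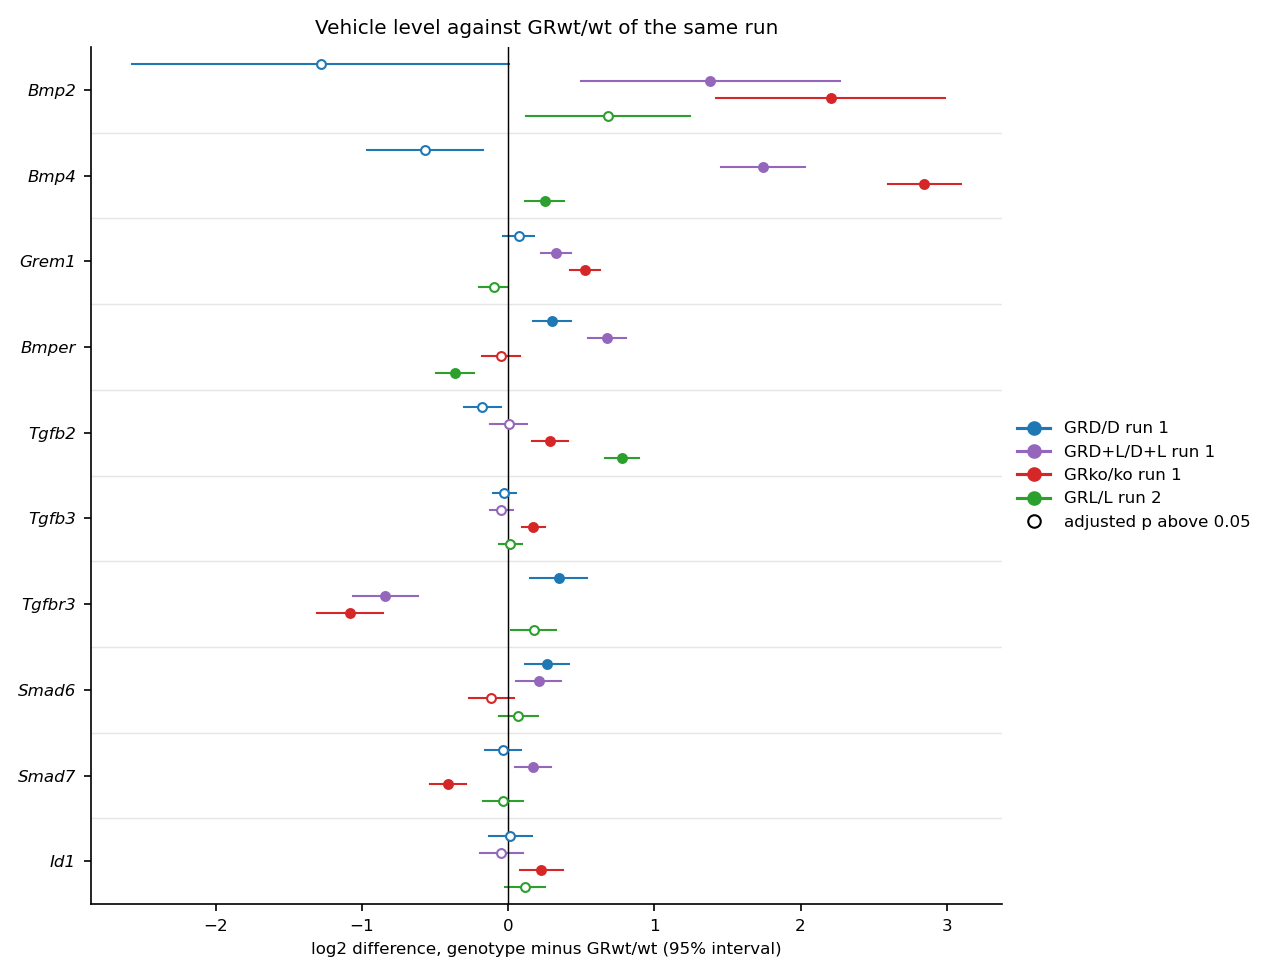
Log2 difference in vehicle level between each genotype and GRwt/wt of the same run with its 95% interval, filled where the adjusted p was at most 0.05. Bmp4 and Bmp2 lay furthest above 0, in GRko/ko and then GRD+L/D+L, and Tgfbr3 furthest below 0 among the filled points in the same genotypes.

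The tests of whether the Dex response differed called 1 of 10 genes for GRD/D (Tgfbr3, background 3.29%), 1 for GRD+L/D+L (Tgfb2, 3.23%), 4 for GRko/ko (Bmp4, Grem1, Tgfb2 and Tgfbr3, 8.48%) and 4 for GRL/L (Tgfb2, Tgfb3, Tgfbr3 and Id1, 1.85%). Between the GRwt/wt sets of the 2 runs, 4 of 10 differed (Grem1, Bmper, Tgfb2 and Tgfb3), against 7.09% of all genes, and this comparison also crosses sex. The 3 run 1 tests share the GRwt/wt libraries. The response of GRko/ko minus GRwt/wt was -0.80 ± 0.083 for Tgfb2 (edgeR adjusted p = 4.01e-09) and -0.96 ± 0.15 for Tgfbr3 (edgeR adjusted p = 1.58e-05). That of GRL/L minus GRwt/wt was -0.33 ± 0.082 for Tgfb2 (edgeR adjusted p = 0.0216), a call lost without GRwt/wt vehicle replicate 6, GRwt/wt Dex replicate 5, GRL/L vehicle replicate 1 or GRL/L Dex replicate 1 or 2 (adjusted p 0.0565 to 0.0701).

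Some of these calls were lost in a model with 1 term for the run, the layout of the study, in which GRwt/wt has a single Dex effect and a single level over both runs. Under Dex these were Tgfb3 in GRD/D (-0.12, edgeR adjusted p = 0.48) and GRD+L/D+L (-0.19, edgeR adjusted p = 0.39), Tgfb2 in GRL/L (-0.27, edgeR adjusted p = 0.0931) and Bmper in GRwt/wt (-0.08, edgeR adjusted p = 0.31), which was called in run 2 alone. In vehicle they were Tgfb2 in GRko/ko, whose difference became 0.06 (edgeR adjusted p = 0.69), Tgfb3 in GRko/ko (-0.02, edgeR adjusted p = 0.887) and Bmper in GRD/D (0.19, edgeR adjusted p = 0.0832). Other calls were gained there. In vehicle they were Tgfb2 in GRD/D (-0.41, edgeR adjusted p = 0.0131), Tgfb3 in GRD+L/D+L (-0.24, edgeR adjusted p = 0.0434) and Grem1 in GRL/L (-0.195, edgeR adjusted p = 0.0397). The single Dex effect of GRwt/wt was called for Tgfb2 (0.48, edgeR adjusted p = 1.14e-05), which was not called in run 2 alone. It was also called for Smad6 (0.23, edgeR adjusted p = 0.000335) and Id1 (0.25, edgeR adjusted p = 0.000293), which were not called in run 1 alone. Of the differences in response, the call was lost for Tgfb2 in GRko/ko (-0.39, edgeR adjusted p = 0.0565) and GRD+L/D+L (0.08, edgeR adjusted p = 0.813) and for Tgfb3 (-0.01, edgeR adjusted p = 0.994) and Id1 (-0.25, edgeR adjusted p = 0.278) in GRL/L. A call was gained for Bmper in GRD/D (0.415, edgeR adjusted p = 0.00391) and GRD+L/D+L (0.439, edgeR adjusted p = 0.00198). GRD/D also gained Grem1 (-0.33, edgeR adjusted p = 0.011) and Tgfb3 (0.37, edgeR adjusted p = 0.046). GRko/ko gained Tgfb3 (0.50, edgeR adjusted p = 0.00231) and Smad6 (-0.27, edgeR adjusted p = 0.0388).

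**Figure D4:**
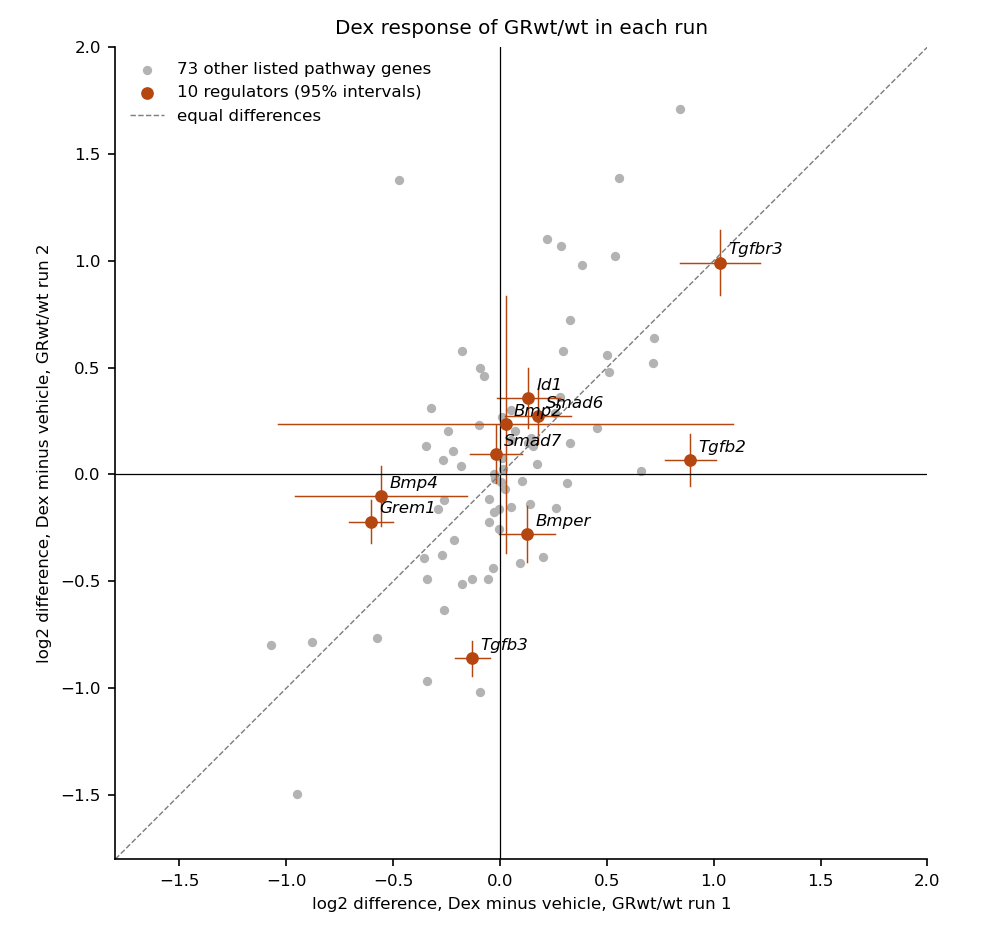
Log2 difference between Dex and vehicle in GRwt/wt cells of run 1 (x axis) and run 2 (y axis) for the 10 genes, with 95% intervals, and for other listed pathway genes in grey. The dashed line marks equal differences. Tgfbr3 lies on the line, Tgfb2 far below it near 0 on the y axis, and Tgfb3 far below it near 0 on the x axis.

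Another 74 genes of the pathway were listed by role, and 73 of them passed the filter. Under Dex, 31 of the 73 were called in GRwt/wt of run 1, 20 in GRD/D, 16 in GRD+L/D+L, none in GRko/ko, 44 in GRwt/wt of run 2 and 34 in GRL/L. In GRwt/wt of run 1 the 31 were 5 of 12 ligands (1 higher, 4 lower), 8 of 21 antagonists and extracellular modulators (5 higher, 3 lower), 4 of 11 receptors (1 higher, 3 lower), 6 of 14 SMADs and intracellular regulators (3 and 3) and 8 of 15 target genes (7 higher, 1 lower). In run 2 they were 6 ligands (1 higher, 5 lower), 13 antagonists and modulators (10 higher, 3 lower), 6 receptors (3 and 3), 9 SMADs and intracellular regulators (3 higher, 6 lower) and 10 target genes (7 higher, 3 lower). The shares called were 42.5% in GRwt/wt of run 1 and 60.3% in that of run 2, against 13.9% and 31.6% of all genes. They were 27.4% in GRD/D (all genes 11.9%), 21.9% in GRD+L/D+L (5%) and 46.6% in GRL/L (19.1%). The lists, like the 10 genes, were chosen with earlier results of these data known. Their shares here and below therefore describe these genes and are no independent test of the pathway. Among the ligands, Inhba, a subunit of activin A, fell in GRwt/wt of run 2 from 293 to 324 CPM in vehicle to 94.8 to 116 CPM in Dex (-1.49 ± 0.064), in GRL/L by 1.11 ± 0.064 on the log2 scale and in GRD/D by 0.82 ± 0.061. It also fell in GRwt/wt of run 1, from 1760 to 1980 CPM to 961 to 1000 CPM (-0.95 ± 0.062), and in GRD+L/D+L (-0.40 ± 0.061). Its relative Inhbb rose in GRD/D (1.16 ± 0.091) and in GRD+L/D+L (1.22 ± 0.10), while GRwt/wt of run 1 stayed at 88.9 to 117 CPM in vehicle and 84.8 to 99.1 CPM in Dex. In GRL/L, Inhbb was also higher under Dex without overlap, at 52.3 to 60.8 CPM against 37.7 to 41 CPM in vehicle. GRwt/wt of run 2 overlapped, at 63.9 to 66.3 CPM in Dex and 50.3 to 65.5 CPM in vehicle. The Inhbb responses of GRD/D and GRD+L/D+L differed from that of GRwt/wt by 1.26 ± 0.13 (edgeR adjusted p = 1e-08) and 1.31 ± 0.14 (edgeR adjusted p = 1.2e-08). Gdf15, a stress-induced member of the family, fell in GRwt/wt of run 1 (-1.07 ± 0.25, edgeR adjusted p = 0.00187) and Bmp5 in GRwt/wt of run 2 (-1.02 ± 0.21, edgeR adjusted p = 0.000265). Both were scarce, with Gdf15 at 1.3 to 4.02 CPM and Bmp5 at 0.832 to 2.5 CPM in these groups. Mean Gdf15 was also lower under Dex in GRwt/wt of run 2 (2.77 to 1.59 CPM) and GRD/D (3.16 to 2.15). The same held in GRD+L/D+L (5.29 to 3.25) and GRL/L (3.13 to 1.82), and GRko/ko was at 4.05 and 3.76.

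Among the antagonists, Fst, encoding the activin antagonist follistatin, rose in GRwt/wt of run 2 from 32.1 to 38.4 CPM in vehicle to 111 to 119 CPM in Dex (1.71 ± 0.071), in GRL/L by 0.93 ± 0.073 and in GRD+L/D+L by 0.84 ± 0.072. Fst also rose in GRwt/wt of run 1, from 55.9 to 70.1 CPM to 108 to 111 CPM (0.84 ± 0.072), and in GRD/D (0.91 ± 0.072). Its response in GRL/L differed from that in GRwt/wt by -0.78 ± 0.10 (edgeR adjusted p = 4.15e-06). Fstl3, a follistatin-like antagonist (1.02 ± 0.071), Nbl1, a BMP antagonist (1.07 ± 0.053), Tll1, a tolloid-like protease that cleaves BMP antagonists (1.1 ± 0.077), and Sostdc1, a BMP antagonist at 0.401 to 1.37 CPM (1.38 ± 0.34), also rose in GRwt/wt of run 2. Fstl3 rose by 0.77 ± 0.061 in GRD/D, 0.54 ± 0.060 in GRwt/wt of run 1, 0.68 ± 0.060 in GRD+L/D+L and 0.64 ± 0.071 in GRL/L, and Nbl1 by 0.28 ± 0.052 in GRwt/wt of run 1, 0.23 ± 0.052 in GRD/D and 0.61 ± 0.052 in GRL/L. Ccn2, a fibroblast TGF-beta target, rose in GRwt/wt of run 2 from 453 to 515 CPM to 1180 to 1350 CPM (1.39 ± 0.055) and in GRL/L by 1.25 ± 0.054. In run 1 Ccn2 rose by 0.56 ± 0.054 in GRwt/wt, 0.31 ± 0.053 in GRD/D and 0.18 ± 0.053 in GRD+L/D+L. Tgfbr1, the type I TGF-beta receptor, rose in GRD+L/D+L from 35.8 to 39.7 CPM to 85.7 to 90.9 CPM (1.23 ± 0.084), a response above that of GRwt/wt by 0.92 ± 0.12 (edgeR adjusted p = 9.08e-07), and in GRD/D the response was above that of GRwt/wt by 0.65 ± 0.12 (edgeR adjusted p = 0.000217). Acvr2a, a type II activin receptor, had a lower response in GRD/D than in GRwt/wt (-0.38 ± 0.096, edgeR adjusted p = 0.0165), and Inhba a higher one in GRD+L/D+L (0.55 ± 0.086, edgeR adjusted p = 4e-05). The response of GRwt/wt in run 2 exceeded that in run 1 by 0.83 ± 0.076 for Ccn2, 0.78 ± 0.074 for Nbl1 and 0.87 ± 0.10 for Fst.

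In GRko/ko under Dex, the matrix gene Postn gave 0.27 and Gdf10, a ligand of the family, gave -1.18, with edgeR adjusted p of 0.755 and 0.769. The GRko/ko response differed from that of GRwt/wt by 0.99 ± 0.086 for Inhba, -0.80 ± 0.088 for the BMP target Atoh8 and -0.86 ± 0.097 for Fst. For the response of GRL/L against GRwt/wt, Nbl1 (-0.46 ± 0.074, edgeR adjusted p = 0.000128) and Inhba (0.38 ± 0.089, edgeR adjusted p = 0.0146) followed Fst. The tests of a difference in response called 5 of 73 listed genes for GRD/D (6.85%, against 3.29% of all genes), 5 for GRD+L/D+L (6.85% against 3.23%), 17 for GRko/ko (23.3% against 8.48%), 6 for GRL/L (8.22% against 1.85%) and 21 between the GRwt/wt sets of the 2 runs (28.8% against 7.09%).

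In vehicle, 12 of the 73 listed genes differed in GRD/D (16.4%, against 9.55% of all genes), 37 in GRD+L/D+L (50.7% against 29.9%), 50 in GRko/ko (68.5% against 45.7%) and 26 in GRL/L (35.6% against 11.3%). Those with the smallest p in GRko/ko included Acvrl1, a type I receptor best known in endothelium, at 11.6 to 13 against 61.4 to 67.5 CPM (-2.39 ± 0.084, edgeR adjusted p = 1.75e-23), and Fst at 227 to 235 against 55.9 to 70.1 CPM (1.91 ± 0.071, edgeR adjusted p = 9.49e-23). In GRD+L/D+L they included Postn (-1.54 ± 0.10) and Inhbb (-1.32 ± 0.10). In GRD/D the 3 with the smallest p were Id2 (0.62 ± 0.089), Ltbp1, which anchors latent TGF-beta (-0.39 ± 0.059), and Smurf2, a ubiquitin ligase of the pathway (0.31 ± 0.048). In GRL/L they were Tgfbr2 (0.34 ± 0.050), Ltbp1 (0.39 ± 0.061) and Nbl1 (0.30 ± 0.053). In GRko/ko and GRD+L/D+L the macrophage and cartilage values given above and the sex of the cells go with these differences as well. In GRko/ko the different background given in the methods of the study does so too.

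The genes whose log2 CPM, centred within each run, followed each of the 10 most closely over the 36 libraries were listed as a description. The points share genotype, treatment and sex, so no p is given. Bmp4 followed Slc38a4 (Pearson r = 0.973), Adamts10 (0.958) and Clu (0.957), and Tgfbr3 followed Cmah (0.957), Tbx15 (0.932) and Irx1 (0.927). Grem1 was closest to Egfr (0.942), Npr3 (0.920) and Tspyl5 (0.9), Tgfb3 to Tnfrsf11b (0.925), Ttyh2 (0.922) and Stx6 (0.902), and Smad7 to Ecm1 (0.936), Mark4 (0.932) and Ctxn1 (0.929). Bmp2 was closest to Slc16a12 (0.879), Rnf5 (0.875) and Nudt18 (0.872), Smad6 to Hspb8 (0.872), Ehd1 (0.871) and Wipi1 (0.865), and Bmper to Cd151 (0.846), Jam2 (0.833) and Prkar1b (0.828). The lowest values were those of Id1, with Snx7 (0.802), Echs1 (0.801) and Sdf2l1 (0.796), and Tgfb2, with Adgrg2 (0.763), Arhgap17 (0.757) and Foxn3 (0.737). None of the 10 was among the 3 closest genes of another.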

How the data were processed

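RNA-seq was read as 1 deposited table of counts per gene. Per the labels and the study's methods, the authors made TruSeq libraries from total RNA, sequenced them on a NextSeq 550, aligned reads to mm10 with HISAT2 (2.1.0 in the submitters' processing notes), kept unique alignments and counted reads per gene with featureCounts (2.0.0). The annotation and the strand setting are not given in the sources used here. The deposited counts were not normalized. Comparison columns made by the authors were not part of the table.

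The counts were analysed with edgeR 4.0.16 in R 4.3.3. Genes were kept by filterByExpr over the 12 groups, and 1 quasi-likelihood model with TMM normalization was fitted to all 36 libraries, which share the estimate of the spread. Contrasts within a run gave 6 Dex comparisons, 4 vehicle comparisons and 4 differences in Dex response, and 1 contrast compared the response of GRwt/wt between runs. A gene was called at a Benjamini-Hochberg adjusted p of at most 0.05 over all genes tested, two-sided. The SE was the absolute log2 estimate divided by the square root of F, and intervals were 95%. The study states separate cultures per genotype. The p-values rest on the spread between libraries of the same group, pooled over the 12 groups. Whether these libraries were independent cultures was not tested. All libraries of a group had the same sex. For the median gene, the squared difference between libraries of a group was 1.41 to 7.24 times that of counting noise. The model was tested on simulated data. Library totals limit the precision of scarce genes, Bmp2 above all.

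The members and gene lists were chosen with earlier results of these data known. Named genes were the 10 members, Nr3c1, pathway-list genes past an absolute log2 of 1 in the GRwt/wt Dex comparisons or among the 3 smallest adjusted p in each other comparison, and the 3 genes with the highest Pearson r to each member (prior count 2). Of the genes this rule names, 1 is not reported here. Gene coordinates are from GENCODE on GRCm38 and promoters from RefSeq. Alternatives were DESeq2 1.42.0, its size factors, no filter or at least 10 counts in every library, an absolute log2 of at least 1, a term for the run as in the study's layout, smaller sets of libraries, replicate blocks and each library left out. Figures were drawn with matplotlib 3.10.9.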

Additional observations from a re-analysis of the deposited data

Results flagged for a closer look

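The following differences in Dex response passed the test of the difference itself (edgeR, adjusted over all genes tested). In GRD/D against GRwt/wt of run 1, Tgfbr3 differed by -0.668 ± 0.131 on the log2 scale (SE, adjusted p = 0.00091). In GRD+L/D+L, Tgfb2 differed by -0.325 ± 0.0839 (adjusted p = 0.0186), a call lost without 4 of the 12 libraries in turn. In GRko/ko, Grem1 differed by 0.56 ± 0.0723 (adjusted p = 3.84e-07), Tgfb2 by -0.796 ± 0.083 (adjusted p = 4.01e-09) and Tgfbr3 by -0.964 ± 0.152 (adjusted p = 1.58e-05). Bmp4 differed there by 0.753 ± 0.214 (adjusted p = 0.0231), a call lost without 3 of the 12 libraries in turn. All these comparisons share the GRwt/wt libraries of run 1, which were female, while GRD+L/D+L and GRko/ko were male. The methods of the study also give the knockout line a different background.

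In GRL/L against GRwt/wt of run 2, both male, Tgfb3 differed by 0.355 ± 0.0561 (adjusted p = 8.5e-05). Tgfb2 differed by -0.331 ± 0.0816 (adjusted p = 0.0216), Tgfbr3 by -0.404 ± 0.106 (adjusted p = 0.0353) and Id1 by -0.358 ± 0.0963 (adjusted p = 0.042), and these 3 calls were lost without 5, 8 and 8 of the 12 libraries in turn.

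Between GRwt/wt of run 2 and GRwt/wt of run 1, the Dex response differed by 0.383 ± 0.072 for Grem1 (adjusted p = 0.000333), -0.406 ± 0.0909 for Bmper (adjusted p = 0.00276), -0.824 ± 0.0837 for Tgfb2 (adjusted p = 3.82e-09) and -0.729 ± 0.0564 for Tgfb3 (adjusted p = 6.41e-12). Run and sex cannot be told apart in this comparison.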

How the results depend on the processing

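Of 1302 values of the 10 genes under the alternatives, 75 lost the call with the same sign, 24 gained one, and 3 that had been called changed sign. Another 16 values that were never called changed sign, 13 of them with the run term. Many of the 75 losses came only from adding the limit of an absolute log2 of at least 1, which leaves estimates and p-values unchanged. Of 1200 values with 1 library left out, 60 lost the call and 7 gained one. No called value changed sign there, and 55 values that were never called did. The 3 reversals of called values came from the model with a term for the run, which takes 1 Dex effect for GRwt/wt over both runs: Tgfb3 in vehicle GRko/ko became -0.019 (adjusted p = 0.887), the Tgfb2 response of GRD+L/D+L 0.083 (adjusted p = 0.813) and the Tgfb3 response of GRL/L -0.009 (adjusted p = 0.994). That model also called 4 members for the response of GRD/D and 2 for that of GRL/L, and over all genes 5207 for Dex in GRwt/wt and 1105, 1227, 2310 and 115 for the responses of GRD/D, GRD+L/D+L, GRko/ko and GRL/L. With an absolute log2 of at least 1 as well, the members called under Dex were 1 in GRwt/wt of run 1 and 0 in GRD/D, GRD+L/D+L, GRL/L and GRwt/wt of run 2 (all genes 311, 152, 62, 396 and 695). In vehicle they were 0 for GRD/D, 2 for GRD+L/D+L, 3 for GRko/ko and 0 for GRL/L (all genes 329, 863, 2200 and 203). For all 5 differences in response they were 0 (all genes 95, 93, 261, 19 and 160). Fitting only the groups compared gave 0 members for vehicle GRD/D and 3 for the response of GRD+L/D+L, and over all genes 693 and 1507 for Dex in GRD/D and GRD+L/D+L, 632 for vehicle GRD/D and 885 for the response of GRD+L/D+L. With no filter on low counts the response of GRD+L/D+L had 2 members called, and Dex in GRko/ko had 110 genes called of 32584 tested. Beyond the smaller or larger sets tested, the cause of these shifts was not tested.

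With 1 library left out, the members called under Dex ranged from 3 to 5 in GRwt/wt of run 1, 4 to 6 in GRD/D and 3 to 4 in GRL/L, and stayed at 5 in GRD+L/D+L, 0 in GRko/ko and 6 in GRwt/wt of run 2. In vehicle they ranged from 1 to 3 in GRD/D, 4 to 6 in GRD+L/D+L and 7 to 8 in GRko/ko, and stayed at 3 in GRL/L. For the responses they ranged from 0 to 1 in GRD+L/D+L, 3 to 4 in GRko/ko and 1 to 4 in GRL/L, and stayed at 1 in GRD/D and 4 between the runs. These ranges describe how stable the member calls were and are not set against the share over all genes.

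Vehicle and Dex libraries of a genotype share replicate numbers, but the correlation of their deviations from the group means ran from -0.079 to 0.116, so the numbers were not taken as pairing. With the number as a replicate block, the members called under Dex were 4 in GRwt/wt of run 1, 5 in GRD/D, 5 in GRD+L/D+L, 0 in GRko/ko, 6 in GRwt/wt of run 2 and 4 in GRL/L. Over all 15489 genes they were 2021, 1775, 739, 0, 4762 and 2881. For the responses 1, 1, 4, 3 and 4 members were called in GRD/D, GRD+L/D+L, GRko/ko, GRL/L and between runs (all genes 469, 468, 1216, 248 and 1038). With the number as a replicate block across run 1 in vehicle, 3, 7 and 8 members were called in GRD/D, GRD+L/D+L and GRko/ko. Over all 14817 genes tested there, 1517, 4666 and 7013 were called. Under the block Bmp2 was called for Dex in GRD/D (1.66, adjusted p = 0.0476), while Tgfb3 there (-0.12, adjusted p = 0.0562) and the Id1 response of GRL/L (-0.35, adjusted p = 0.0673) were not. The vehicle comparison of GRL/L with GRwt/wt had no such fit, since those groups share no replicate numbers.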
